A study of Homo sapiens with 6 samples.

Results

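The 29 genes described here act at the G1/S transition or in DNA replication, and their transcripts were followed in K562, an established human line from a chronic myeloid leukaemia. The members were chosen by name from a list of such genes, and all probe sets that the platform annotation pairs with 1 of them were taken. That gave 58 of the 54675 probe sets on the array and 29 of the 19775 genes with a probe set of their own. The brightest probe set stands for each gene, 19 members had at least 2 probe sets, and 10 had 1.

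Total RNA of 6 samples from 3 experiments was profiled on Affymetrix HG-U133 Plus 2.0 arrays, 1 array per sample. In each experiment, 1 sample was nucleofected with a small interfering RNA, named RNAi8 in the labels and used at up to 200 nM, and the other with scrambled RNA. After 24 hours, both samples of experiments 1 and 3 received all-trans retinoic acid (ATRA), and both samples of experiment 2 received its solvent DMSO. Nucleofection is thus common to all 6 samples, DMSO treatment rests on 1 experiment, and the sources used here do not state the time under ATRA. By its title, the study asked how PRAME, a tumour antigen found in many leukaemias, bears on retinoic acid receptor signalling and the response to ATRA.

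Cells commit to division when cyclin E with its kinase, and the E2F factors freed from the retinoblastoma protein, switch on the genes for DNA synthesis. Origins are licensed when ORC, CDC6 and CDT1 load the ring of MCM2 to MCM7 on DNA. CDC45 and the GINS complex turn that ring into the active helicase at the start of S phase. Polymerase alpha, the PCNA clamp and its loader then take part in copying the strands. Transcripts of these genes are abundant in dividing leukaemia cells and peak around the G1/S boundary. In RNA from a whole culture, fewer cells in S phase and less transcript per cell cannot be told apart.

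PRAME transcript was lower with the siRNA by 0.88, 0.85 and 0.60 log2 units in experiments 1, 2 and 3 (12.12 ± 0.02 against 12.90 ± 0.17, SD, n = 3 each). The labels do not name the target of RNAi8, so this is a measured level and no check against a labelled target. Experiment 3 stood apart from the others. The actin 3' control probe set exceeded the 5' one by 2.98 to 3.36 log2 units there and by 0.63 to 0.92 elsewhere, and for GAPDH the gap was 0.74 to 1.20 against 0.03 to 0.08. Across probe sets, arrays of experiments 1 and 2 correlated at 0.996 to 0.998 and those of experiment 3 with the rest at 0.979 to 0.982. Of the 12 erythroleukaemic markers listed for K562, 9 had a probe set of their own and all 9 were above the median of all probe sets (6.00), led by the transferrin receptor gene TFRC at 13.34. Markers of other cell types had median levels of 8.45 for epithelium, 6.31 for B lymphocytes, 5.94 for stroma and endothelium, 5.68 for monocytes and 5.42 for T and NK lymphocytes. KRT18 at 11.95 was the brightest epithelial marker, and CD3D at 10.08 the brightest lymphocyte marker. The log2 summed signal of the T and NK list was 10.66 to 10.79 in experiments 1 and 2 and 9.65 to 9.89 in experiment 3. That sum follows CD3D, at 10.42 to 10.55 in experiments 1 and 2 and at 9.08 and 9.46 in experiment 3, while the other 6 measured genes of the list stood at 6.19 or below on every array. The part of such markers in the results was not tested. Member levels ran from 7.64 for CHAF1B to 12.08 for PCNA, and none of the 29 probe sets that stand for a gene lay below 6.00, where signals were not shown to be above background.

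The promoters of many members share letters of the E2F binding site, and some are shown because E2F factors act in G1/S control. RefSeq promoter windows (GRCh38.p14, 250 bases before to 50 after a start site) were found for 26 members, with 34 windows in all. MCM4, MCM5 and CCNE2 had no entry. The spellings searched on both strands were TTTCCCGC, TTTCGCGC, TTTGCCGC and TTTGGCGC. They were found in 15 of the 26 members (57.7%), against 3.99% of the 27305 genes with a window and 5.36% of those also tested here. The letters are not particular to the members. Of the other replication and G1/S genes counted further below, 25 of 58 with a window (43.1%) had them, and of the G2 and mitosis genes 3 of 23 (13.0%). Each sequence shown runs 5′ to 3′ on the gene's strand, lies upstream of the start site in no annotated gene, and has the matched letters in capitals.
MCM6 (chr2:135876502-135876615, minus strand): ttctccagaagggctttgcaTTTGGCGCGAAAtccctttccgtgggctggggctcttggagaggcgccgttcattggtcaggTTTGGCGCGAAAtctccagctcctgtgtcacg
E2F1 (chr20:33686386-33686438, minus strand): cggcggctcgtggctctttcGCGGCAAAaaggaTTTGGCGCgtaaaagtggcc
E2F2 (chr1:23531248-23531295, minus strand): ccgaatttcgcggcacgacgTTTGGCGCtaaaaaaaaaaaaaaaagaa
GINS2 (chr16:85688958-85689005, minus strand): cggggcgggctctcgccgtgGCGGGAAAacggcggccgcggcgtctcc
RFC3 (chr13:33818074-33818121, plus strand): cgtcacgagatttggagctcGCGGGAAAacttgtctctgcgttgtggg
POLA1 (chrX:24693761-24693808, plus strand): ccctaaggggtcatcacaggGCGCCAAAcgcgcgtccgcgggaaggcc

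In MCM6 the letters occur 2 times as a run that reads as a match on each strand, so 4 overlapping matches were counted. E2F1 holds a match on each strand, beginning at -33 and at -20 bases from the start site. All 4 MCM helicase genes with an entry had the letters, as did 4 of 7 licensing and helicase-activation genes, 3 of 4 fork genes and 1 of 4 nucleotide synthesis genes. The other members with the letters were E2F1, E2F2 and UNG. The CCAAT box (CCAAT, both strands) was in 17 of 26 members (65.4%) and in 39.7% of all genes. It was in 51.7% of the other replication and G1/S genes and in 87.0% of the G2 and mitosis genes. A match describes letters in this window and shows no binding in these cells.

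**Figure D1:**
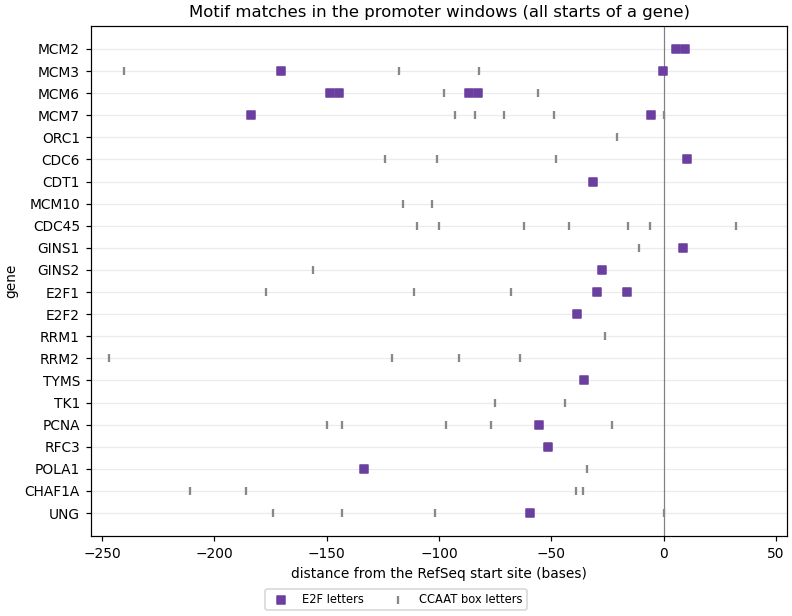
Positions of E2F letters (squares) and CCAAT box letters (ticks) in the RefSeq promoter windows of members, as distance in bases from the start site (line at 0), with all starts of a gene on 1 row. Most E2F squares lie before the start, and CDC6, GINS1 and MCM2 have theirs just after it.

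With the siRNA, no member passed the test against scrambled RNA, and no member differed by more than 0.22 log2 units in any single experiment. Averaged over the 3 experiments, differences ran from -0.09 for GINS1, a subunit of the helicase-activating GINS complex, to 0.15 for CCNE2, the second cyclin E gene. Of the 29 members 19 were above 0 and 10 below, with a median of 0.02, where 52.9% of all genes were above 0 with a median of 0.01. The members were higher with the siRNA in 26 of 29 cases in experiment 1, in 10 of 29 in experiment 2 and in 20 of 29 in experiment 3. Without the scrambled array of experiment 1, or without the siRNA array of experiment 3, the members above 0 on average numbered 10 and 7. The other array of the pair stayed in those fits, so differences between experiments entered these counts. Of the 3995 genes at a level of 9 or more, 65.2%, 35.6% and 53.3% were above 0 in experiments 1, 2 and 3.

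In limma with treatment as covariate, 0 of 29 members and 0 of 19775 genes (0%) passed an adjusted p of 0.05. An unadjusted p below 0.05 was reached by 0 members and by 255 genes (1.29%), and each member's adjusted p was 1. PRAME, at -0.78 on average, did not pass in that fit either, so a lack of calls there does not show a lack of change. With the experiment as a block, 0 members and 5 genes (0.0253%) passed, PRAME among them (adjusted p = 9.97e-04 in limma). An unadjusted p below 0.05 was then reached by 3 members (10.3%), MCM10, CCNE2 and UNG, beside 6.41% of all genes. The blocked 95% intervals of the members lay between -0.21 and 0.29 log2 units, and the unblocked ones between -0.80 and 0.84.

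**Figure D2:**
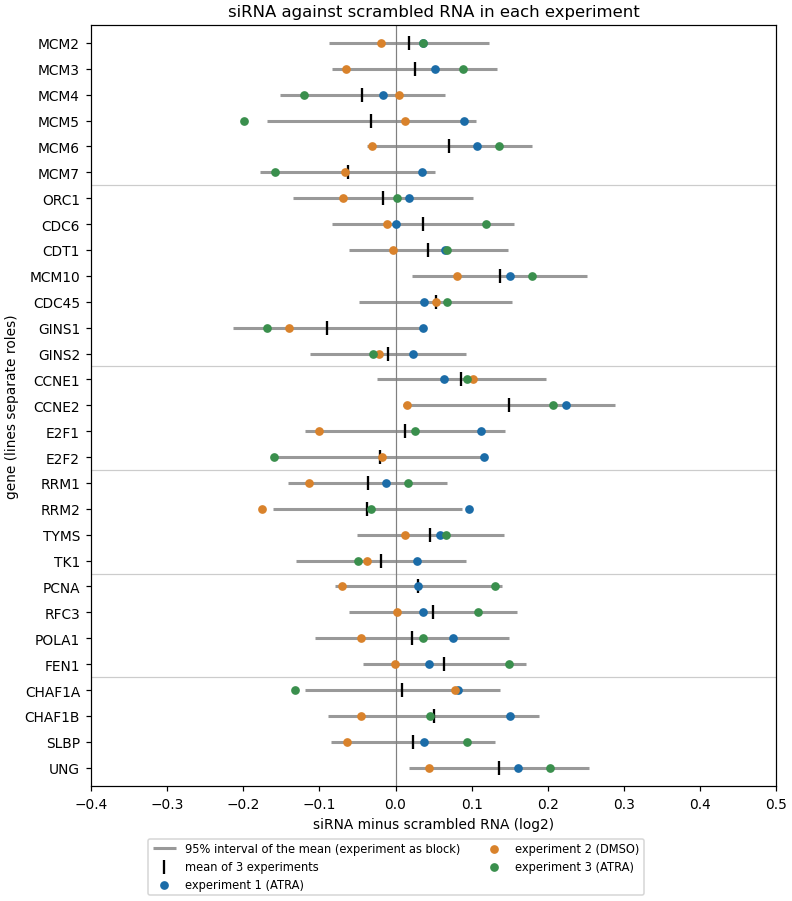
siRNA minus scrambled RNA on the log2 scale for each member (rows, grouped by role) in experiments 1, 2 and 3 (coloured points), with the mean of the 3 (tick) and its 95% interval from limma with the experiment as block (grey bar). The intervals of MCM10, CCNE2 and UNG lie above 0, and all points lie between -0.20 and 0.22.

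MCM10, which helps to start the loaded helicase, had levels of 9.35, 9.14 and 9.62 with the siRNA in experiments 1, 2 and 3, and 9.20, 9.06 and 9.44 with scrambled RNA. The siRNA array was the higher one of each pair, while the groups overlapped across experiments. The difference was 0.14 ± 0.13 (SE) without the block and 0.14 ± 0.05 (SE) with it, with adjusted p = 1 and 0.771 in limma. Of its other 2 probe sets, 1 differed by 0.13, -0.11 and -0.03 and the other by 0.07, -0.18 and 0.35, so the order in experiment 2 was the opposite on both.

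CCNE2 stood at 8.07, 7.86 and 8.21 with the siRNA and at 7.84, 7.84 and 8.004 with scrambled RNA. The difference was 0.22 and 0.21 in the ATRA experiments and 0.02 under DMSO, and the mean of 0.15 ± 0.06 (SE, blocked) had an adjusted p = 0.771 in limma. Its second probe set, at a level of 6.06, differed by -0.03, -0.03 and 0.32. CCNE1, the other cyclin E gene, was higher in each pair by 0.06, 0.10 and 0.09, from 9.17, 9.34 and 9.62 to 9.24, 9.44 and 9.71, and its unblocked SE of 0.18 exceeded that.

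UNG, the glycosylase that removes uracil from new DNA, stood at 9.58, 9.40 and 10.05 with the siRNA and at 9.42, 9.35 and 9.85 without. Its differences of 0.16, 0.04 and 0.20 averaged 0.14 ± 0.05 (SE, blocked, adjusted p = 0.771 in limma). Those 4 genes, CDC45, TYMS and RFC3 were higher with the siRNA in all 3 experiments, 7 of 29 members (24.1%), beside 13.1% of all genes and 14.1% of genes at or above the median of all probe sets. None of the 29 was lower in all 3 experiments, beside 11.9% of all genes and 13.7% of the brighter ones.

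The MCM helicase genes divided 3 to 3 around 0, from -0.06 ± 0.13 (SE) for MCM7 to 0.07 ± 0.18 (SE) for MCM6. MCM5 showed the widest spread among them, with differences of 0.09, 0.01 and -0.20. Among the licensing and helicase-activation genes, CDC45 differed by 0.04, 0.05 and 0.07, and the origin licensing factor CDT1 by 0.06, -0.003 and 0.07. GINS1 differed by 0.04, -0.14 and -0.17.

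E2F1, the factor that drives many of the other members, differed by 0.11, -0.10 and 0.03, and E2F2 by 0.12, -0.02 and -0.16. Among the nucleotide synthesis genes, TYMS, the thymidylate synthase, differed by 0.06, 0.01 and 0.07, and RRM2, the regulated subunit of ribonucleotide reductase, by 0.10, -0.18 and -0.03. PCNA differed by 0.03, -0.07 and 0.13, and FEN1, the flap nuclease of the lagging strand, by 0.04, -0.001 and 0.15. CHAF1B, a histone chaperone subunit, differed by 0.15, -0.05 and 0.05, and SLBP, which binds histone mRNA, by 0.04, -0.06 and 0.09. Of these genes only TYMS was above 0 in each experiment, and each of the rest had both signs.

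Levels under ATRA and DMSO were compared on experiment means, since treatment varied only between experiments. Of the 29 members 26 were above 0, with a median of 0.18, where 47.8% of all genes were above 0 with a median of -0.01. Among genes at a level of 9 or more, 60.8% were above 0 with a median of 0.07. POLA1, the catalytic subunit of polymerase alpha, had the highest difference, 0.62 ± 0.46 (SE; 2 ATRA experiments, 1 DMSO experiment), and E2F1 the lowest, -0.18.

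In limma on the 3 experiment means, 0 of 29 members and 0 of 19775 genes (0%) passed. An unadjusted p below 0.05 was reached by 0 members and 235 genes (1.19%), and the adjusted p was 0.995 for each member named with an SE here. With the experiment as a random block over all 6 arrays, 0 members and 2 genes (0.0101%) passed. On all 4 ATRA arrays 12 members (41.4%) were above both DMSO arrays, beside 13.5% of all genes and 18.7% of the brighter ones. Below both were 2 members, E2F1 and TK1, beside 13.2% and 14.1%.

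In experiment 1 against experiment 2, the members differed by little. Differences ran from -0.19 for CCNE1 to 0.20 for E2F2, 19 were above 0 and 10 below, and the median was 0.04. Among genes at a level of 9 or more, 58.7% were above 0 with a median of 0.02. Both arrays of experiment 1 were above both of experiment 2 for 13 members (44.8%), beside 20.4% of all genes and 26.5% of the brighter ones. They were below for 6 members, beside 22.6% and 23.8%. In limma on those 4 arrays, where the 2 arrays of an experiment serve as replicates, 0 members and 36 genes (0.182%) passed, and 7 members (24.1%) against 14.9% of genes had an unadjusted p below 0.05. The 95% intervals of all members lay between -0.33 and 0.35.

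In experiment 3 against the same DMSO experiment, 25 members were above 0 and the median was 0.30. Genes at a level of 9 or more were above 0 in 60.5% of cases, with a median of 0.12. In limma on those 4 arrays 18 of 29 members (62.1%) passed, all of them higher in experiment 3, beside 29.3% of all genes in either direction and 19.5% on the higher side. The replicates of that test are again the 2 arrays of an experiment, so it compares these experiments and not the treatments. Since experiments 1 and 3 share the DMSO arrays, and both received ATRA, the direct difference between them is given in each role as well. Among genes at a level of 9 or more, 59.1% were higher in experiment 3 than in experiment 1. Experiment 3 was above experiment 1 for 25 members, with a median of 0.31 against 0.01 for all genes and 0.09 at that level. Both of its arrays exceeded all 4 others for 21 members (72.4%), beside 27.8% of all genes and 37.6% of the brighter ones, and lay below them for 1 member, E2F1, beside 20.7%. The larger actin and GAPDH gaps of experiment 3 move with this difference, and their part in it was not tested.

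**Figure D3:**
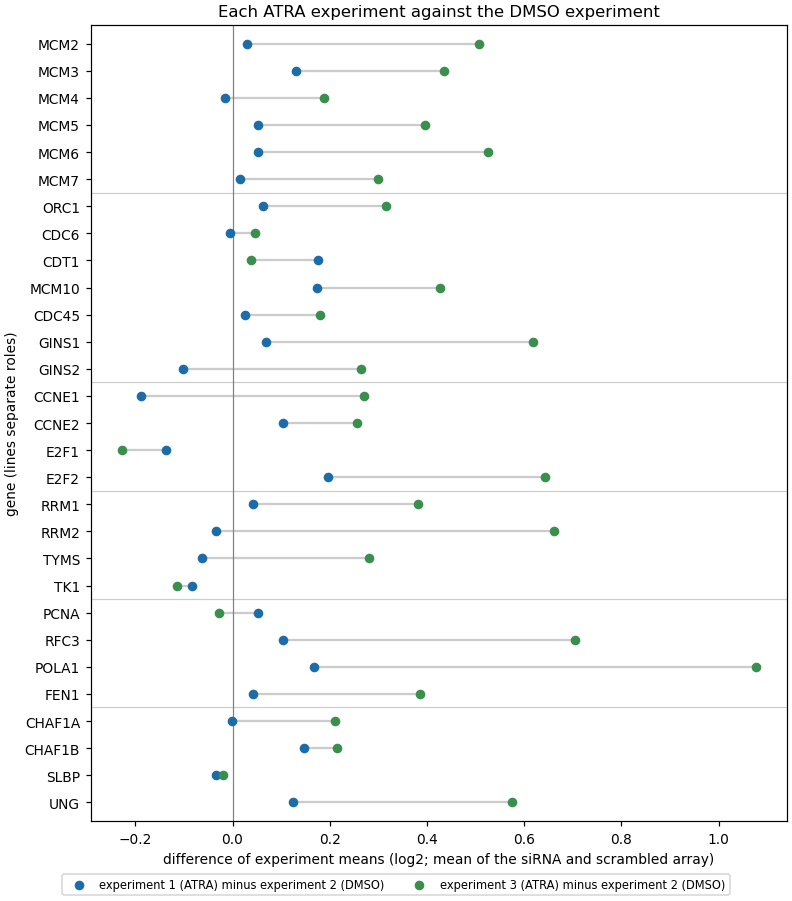
Difference of experiment means on the log2 scale for each member (rows, grouped by role), experiment 1 minus experiment 2 (blue) and experiment 3 minus experiment 2 (green), joined by a line. The blue points lie between -0.19 and 0.20, and the green points reach 1.08 for POLA1.

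By their brightest probe sets, all 6 MCM helicase genes stood above experiments 1 and 2 on both arrays of experiment 3, and 5 passed against experiment 2. The second probe sets of MCM5 and MCM6 differed by 0.10 and 0.52 from experiment 1, and those of MCM7 and MCM4 by -0.10 and -0.43. For MCM7 the 2 probe sets were close in level, at 10.85 and 10.74. MCM6 stood at 11.76 and 11.65 on the siRNA and scrambled arrays of experiment 1, at 11.64 and 11.67 in experiment 2, and at 12.25 and 12.11 in experiment 3. Those last 2 arrays lay above the other 4, which stood close together. Experiment 3 exceeded experiment 1 by 0.47 for MCM6, 0.48 for MCM2, 0.31 for MCM3, 0.34 for MCM5, 0.28 for MCM7 and 0.21 for MCM4. Against experiment 2 the limma difference was 0.53 ± 0.07 (SE, adjusted p = 0.00284) for MCM6, and MCM4 alone of the 6 missed the test, at 0.19 (adjusted p = 0.0807).

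Among the 7 licensing and helicase-activation genes, 4 passed against experiment 2, namely ORC1, MCM10, GINS1 and GINS2. GINS1 stood at 9.89 and 9.85 in experiment 1, 9.73 and 9.87 in experiment 2, and 10.34 and 10.51 in experiment 3. Both values of experiment 3 were above the rest, by 0.62 ± 0.08 (SE, adjusted p = 0.00374 in limma) against experiment 2. GINS1 exceeded experiment 1 by 0.55, GINS2 by 0.37, ORC1 by 0.25, MCM10 by 0.25 and CDC45 by 0.15. The other probe sets of GINS2 differed by -0.22 and 0.44, and those of MCM10 by 0.19 and 0.005. The brightest probe set of CDC6, the loader of the MCM ring, stood at 9.14 and 9.14, 9.14 and 9.15, and 9.25 and 9.13. Its second probe set stood at 8.69 and 8.67, 8.58 and 8.60, and 9.19 and 8.98, so both arrays of experiment 3 were above the other 4 there, by 0.41 over experiment 1. The 2 probe sets of CDC6 thus differed in what they showed for experiment 3. CDT1 was highest in experiment 1, at 10.81 and 10.75, against 10.60 and 10.61 under DMSO and 10.68 and 10.61 in experiment 3. CDT1 therefore exceeded DMSO by 0.18 in experiment 1 and by 0.04 in experiment 3, with -0.14 between experiments 3 and 1. Its second probe set, at a level of 8.30, differed by 0.14 between experiments 3 and 1.

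By their brightest probe sets, the E2F genes lay on opposite sides of DMSO in experiment 3. E2F2 stood at 8.83 and 8.71, at 8.57 and 8.58, and at 9.14 and 9.30 in experiments 1, 2 and 3, so that both ATRA experiments lay above DMSO, by 0.20 and 0.64. E2F1 stood at 8.74 and 8.63, at 8.77 and 8.87, and at 8.61 and 8.58, below DMSO by 0.14 and 0.23. Its difference from DMSO in experiment 3 missed the test (adjusted p = 0.0508 in limma). CCNE1 was lower than DMSO in experiment 1, at -0.19, and higher in experiment 3, at 0.27 (adjusted p = 0.0337 in limma). Between experiments 3 and 1 the differences were 0.45 for E2F2, -0.09 for E2F1, 0.46 for CCNE1 and 0.15 for CCNE2. The second probe set of CCNE2, at a level of 6.06, differed by -0.11. The second probe sets did not repeat the order of the E2F genes. That of E2F2, at a level of 6.78, differed by -0.19 between experiments 3 and 2, and that of E2F1, at 6.90, by 0.03. With all probe sets of a gene averaged, the ATRA difference of E2F2 was 0.017 in place of 0.42. No test of one E2F gene against the other was made.

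By their brightest probe sets, RRM1 and RRM2, subunit genes of ribonucleotide reductase, the enzyme that makes deoxyribonucleotides, were higher in experiment 3. The second probe set of RRM1 differed by -0.59 from experiment 1, and that of RRM2 by 0.75. RRM2 stood at 11.27 and 11.17 in experiment 1, 11.17 and 11.34 in experiment 2, and 11.90 and 11.93 in experiment 3, which is 1.62 times the signal of experiment 1. RRM1 differed by 0.34 and TYMS by 0.34 between experiments 3 and 1. TK1, the thymidine kinase of the salvage pathway, differed by -0.03, and its levels were 9.58 and 9.55, 9.63 and 9.66, and 9.51 and 9.56.

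At the fork, POLA1 had the widest difference of all members. It stood at 7.88 and 7.81 in experiment 1, at 7.65 and 7.70 in experiment 2, and at 8.77 and 8.74 in experiment 3, an excess of 1.08 ± 0.06 (SE, adjusted p = 5.72e-04 in limma) over experiment 2 and 1.88 times the signal of experiment 1. RFC3, a subunit of the clamp loader, stood at 9.90 and 9.87, 9.78 and 9.78, and 10.54 and 10.43. That was an excess of 0.70 ± 0.06 (SE, adjusted p = 0.00111 in limma) over DMSO and of 0.60 over experiment 1. The other probe sets of RFC3, at levels of 8.45 and 7.41, differed by 0.03 and 0.34 from experiment 1. PCNA, the clamp itself, did not follow, at 12.14 and 12.11, 12.04 and 12.10, and 12.11 and 11.98. By its brightest probe set, FEN1 exceeded experiment 1 by 0.34 in experiment 3. The second probe set of FEN1, at a level of 10.18, differed by -0.08.

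Of the chromatin and repair genes, UNG passed against experiment 2, with 0.57 ± 0.08 (SE, adjusted p = 0.00442 in limma). CHAF1A and CHAF1B, subunits of the chromatin assembly factor that places histones on new DNA, exceeded experiment 2 by 0.21 each and missed the test (adjusted p = 0.0804 and 0.0582). SLBP differed by -0.02. Over experiment 1 the differences were 0.45 for UNG, 0.21 for CHAF1A, 0.07 for CHAF1B and 0.01 for SLBP. Members with E2F letters in their promoter windows had a median of 0.37 between experiments 3 and 1 (n = 15, from -0.14 to 0.91), and the 11 without had 0.25 (from -0.03 to 0.69), with overlapping ranges.

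**Figure D4:**
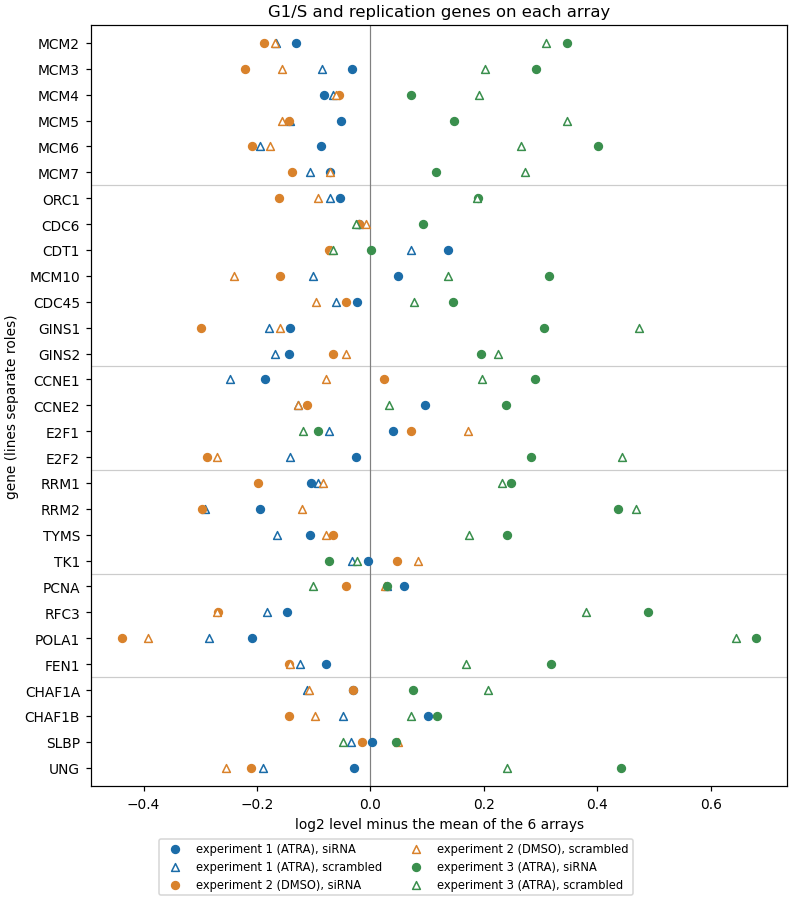
Log2 level of each member (rows, grouped by role) on each of the 6 arrays minus its mean over them, with experiments by colour, siRNA arrays as filled circles and scrambled arrays as open triangles. For 21 members both experiment 3 arrays lie to the right of the other 4, with POLA1 furthest out, while the siRNA and scrambled arrays of an experiment lie close together.

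Other probe sets of the same members did not all give that difference. The brightest probe set was chosen by its mean over all 6 arrays, so the arrays of experiment 3 had a part in the choice. Of the 54 member probe sets at or above 6.00, 37 were higher and 17 lower in experiment 3 than in experiment 1. The 29 that stand for a gene had a median of 0.31, and the other 25 had a median of -0.01, with 12 higher and 13 lower. CHAF1A gave the widest disagreement. Its brightest probe set was 0.21 higher, while its second stood at 9.53 and 9.51 in experiment 1, 9.60 and 9.66 in experiment 2, and 7.21 and 7.28 in experiment 3, a difference of -2.27 from experiment 1.

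The second TK1 probe set stood at 9.55 and 9.62 in experiment 1 and at 8.39 and 8.45 in experiment 3, a difference of -1.16, where the first differed by -0.03. For TYMS the second probe set differed by -0.72 and the first by 0.34, and for RRM1 by -0.59 and 0.34. MCM4 had 5 probe sets, whose differences were 0.21, -0.43, 0.80, -0.94 and 0.12 in order of brightness. MCM4, RRM1 and TYMS thus each had a probe set at least 0.25 higher and another at least 0.25 lower. They were 3 of the 18 members with more than 1 such probe set (16.7%), beside 17.8% of all genes with more than 1, a share near the background.

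Both probe sets of MCM6 (0.47 and 0.52) and of RRM2 (0.69 and 0.75) were higher. With all probe sets of a gene averaged, 22 members were higher in experiment 3 than in experiment 1, the median was 0.15, and MCM4, RRM1, TYMS, CHAF1A and CDT1 had the opposite sign. With quantile normalization it was 24 members and 0.31, and CDC6 had the opposite sign.

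**Figure D5:**
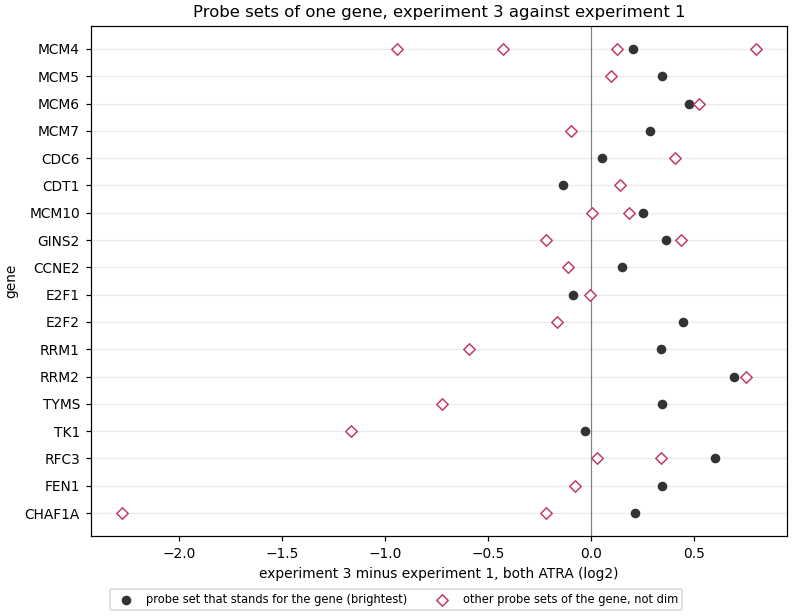
Experiment 3 minus experiment 1, both ATRA, on the log2 scale for every probe set at or above 6.00 of the 18 members with more than 1, the brightest as a filled circle and the others as open diamonds. The circles lie between -0.14 and 0.69, and the diamonds reach from -2.27 for CHAF1A to 0.80 for MCM4.

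Whether the siRNA acted differently under ATRA and DMSO was asked by the difference of its effects. RRM2 had the highest value, 0.21 ± 0.64 (SE), from 0.10 and -0.03 under ATRA and -0.18 under DMSO. CCNE2 had 0.20 ± 0.24 (SE), E2F1 0.17 ± 0.25 (SE) and PCNA 0.15 ± 0.19 (SE), and CHAF1A had the lowest value, -0.10. Of the 29 members 23 were above 0 with a median of 0.07, where 51.0% of all genes were above 0 with a median of 0.004. Of genes at a level of 9 or more 64.6% were above 0 with a median of 0.04. Above 0 were also 57 of 72 other pathway genes and 24 of 30 G2 and mitosis genes.

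In limma on 4 groups, 0 of 29 members and 0 of 19775 genes (0%) passed. An unadjusted p below 0.05 was reached by 0 members and 262 genes (1.32%), and the adjusted p of each member was 1. With 1 array in each DMSO group, the fit takes its spread from the other groups. Without the scrambled array of experiment 1, or without the siRNA array of experiment 3, 8 members were above 0. The other array of the pair stayed in those fits, so differences between experiments entered this count. The members' 95% intervals reached from -2.18 to 2.38, and with the experiment as a block, where 0 genes passed, from -0.40 to 0.49.

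Other genes of the pathway were counted from a list of 75, of which 72 were measured. With the siRNA 38 of 72 were above 0 and 34 below, with a median of 0.01 and 0 past the test. By smallest p stood RBL1, a retinoblastoma-related pocket protein (0.11), POLE3, a subunit of polymerase epsilon (0.14), MSH6, a mismatch repair protein (0.13), and CCND1, cyclin D1 (-0.18). Between experiments 3 and 1, 53 were above 0 and 19 below, with a median of 0.32, and between experiments 1 and 2, 48 and 24 with a median of 0.05. For ATRA against DMSO, where 0 passed, CCND1 stood at -0.71 ± 0.30 (SE), the chromatin remodeller gene HELLS at 0.67 ± 0.48 (SE) and DTL, which helps to degrade CDT1 in S phase, at 0.47 ± 0.33 (SE). The 2 ATRA experiments gave unlike values against DMSO, in experiments 1 and 3 respectively -0.40 and -1.02 for CCND1, 0.24 and 1.10 for HELLS and 0.26 and 0.69 for DTL.

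The 30 G2 and mitosis genes, the phase that follows, were 11 above 0 and 19 below with the siRNA, with a median of -0.01 and 0 past the test. Between experiments 3 and 1, 21 were above 0 and 9 below, with a median of 0.13, from -0.82 for the centromere histone gene CENPA to 0.61 for FOXM1, a factor that drives mitotic genes. The replication members had a median of 0.31 in the same comparison. The difference between the lists was not tested.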

How the data were processed

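The deposited values are log2 expression per probe set after RMA, per the submitters' processing notes and the series' design text, which names BRB-ArrayTools. The sources used here give no version or settings. Probe sets were named from the platform annotation, and each gene was represented by its probe set with the highest mean over all 6 arrays, with no filter. Tests used limma 3.58.1 in R 4.3.3 (eBayes with intensity trend) on all 19775 genes with Benjamini-Hochberg adjustment at 0.05. They were also run on simulated data. The simulation held no differences between experiments, so it cannot show how the fits handle those. The siRNA fit had treatment as covariate. ATRA was compared on 3 experiment means, and the difference of siRNA effects on 4 groups. Residual degrees of freedom were 3, 1 and 2. The members, lists and roles were chosen with earlier results of these data known. In each comparison, members past the threshold and up to 2 per role by smallest p could be given full statistics, and up to 4 genes of each other list. Experiment numbers pair the samples: the series' design text calls the experiments independent, and deviations from group means correlated at 0.679, 0.795 and 0.883 within them. Unpaired arrays of experiments 1 and 2 correlated at 0.534 and 0.402, and those of experiment 3 with the others at -0.796 to -0.627. These values thus also carry the distance of experiment 3 from the rest. The p-values measure only the spread between these samples. No 2 arrays held identical values, and the number of arrays limits the precision. Alternatives were the block, probe set choice, a filter on dim genes, quantile normalization, eBayes without trend, and arrays or experiments left out.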

Additional observations from a re-analysis of the deposited data

Results flagged for a closer look

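CDC6 on the siRNA array of experiment 3 stood at 9.25, apart from the other 3 ATRA arrays, which lay between 9.13 and 9.14. The gap to the nearest was a share of 0.943 of the range over the 4 arrays. Both arrays of experiment 1 held the same CDC6 value, 9.1358, as did the siRNA array of experiment 2. Chance gives a gap large enough to be flagged in about 1 of 20 groups of like values, and 29 members were examined. The 4 arrays come from experiments 1 and 3 and from both RNAs, so they are not such a group.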

How the results depend on the processing

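No member passed under any alternative for the siRNA or for the difference of siRNA effects. For ATRA against DMSO 18 members passed in experiment 3 against experiment 2 alone and 0 otherwise, and the count of genes past the threshold was 2 with the random block and 36 without experiment 3 and 5788 without experiment 1, against 0 with all 3. For the siRNA the replicate block gave 5 genes, and leaving out arrays or experiments gave 0 to 2. The experiment block changed no call of a member. Leaving out arrays or experiments moved the siRNA median of the members between -0.070 and 0.10 and the number above 0 between 7 and 25, with the low counts without the scrambled array of experiment 1 (10) or the siRNA array of experiment 3 (7). The median of the difference of siRNA effects moved between -0.092 and 0.21, with 8 to 29 members above 0, was 0.079 with all probe sets averaged and 0.028 with quantile normalization. RRM1 changed sign with all probe sets averaged, to 0.048 for the siRNA and -0.044 for ATRA. The causes were not tested. Leaving out arrays or experiments also turned the sign of these siRNA differences: MCM7 (-0.17 to 0.045), MCM4 (-0.11 to 0.037), CCNE1 (-0.047 to 0.22), TYMS (-0.058 to 0.14), RRM1 (-0.15 to 0.053, and 0.0018 with the block and without experiment 2), FEN1 (-0.059 to 0.17), PCNA (-0.021 to 0.080, and -0.020 with the block and without experiment 3), UNG (-0.012 to 0.26) and CHAF1B (-7.6e-05 with the block and without experiment 1). In the fit without the block, leaving out 1 array of a pair keeps the other array in. Differences between experiments then enter the siRNA difference. In fits with the block, only RRM1, PCNA and CHAF1B of these genes turned sign, and UNG stayed between 0.10 and 0.18. For ATRA, leaving out arrays or experiments turned RRM2 (-0.034 to 0.66). For the difference of siRNA effects it turned MCM3 (-0.026 to 0.30), MCM6 (-0.092 to 0.40), RRM1 (-0.061 to 0.29), RRM2 (-0.17 to 0.59) and FEN1 (-0.10 to 0.30). The number of arrays limits all of these values.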
